A study of Mus musculus with 6 samples.

Results

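The genes described here are those of ribosome biogenesis and RNA polymerase I, the machinery that transcribes ribosomal RNA in the nucleolus and turns it, with ribosomal proteins, into new ribosomes. They were chosen by symbol alone, with no use of measured values: probe sets with exactly 1 platform symbol, of the Polr1, Utp, Nop and Rrp families or equal to Bop1, Wdr12, Pes1, Rrn3, Ubtf, Npm1, Ncl, Fbl, Dkc1, Gar1, Nhp2, Nolc1, Nle1 or Rrs1. This gave 44 of the 19938 genes on the array, and each was read from its brightest probe set. Utp14b lies only on a probe set that carries a further symbol and was left out. The cells were splenic cells isolated with CD11b beads, which the labels call myeloid-derived suppressor cells (MDSCs), from lethally irradiated B6D2F1 mice given T cell-depleted B6 marrow. The PBS group held 3 mice injected with PBS, and the rapamycin group held 3 mice injected with rapamycin at 1.5 mg/kg, on every other day up to day 10 after transplantation, when the spleens were taken. Both groups share the irradiation, the parent-into-F1 graft and the sort; the labels also mention a graft with or without B6 spleen cells and do not say which these mice received, and they give no age. Each mouse gave 1 array, so 6 arrays in all, and their number limits the precision of every value.

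Ribosomal RNA is made by RNA polymerase I from a single precursor that is then cut and modified by small nucleolar ribonucleoproteins (snoRNPs) and by large assembly complexes, one for each ribosomal subunit. The kinase mTOR, which rapamycin inhibits, is known to promote this process when nutrients are plentiful, in part through Rrn3, the factor that makes RNA polymerase I competent to start transcription, and in growing cells many of the genes follow the transcription factor Myc. The arrays measured the messenger RNAs of the factors; ribosomal RNA and protein were not measured.

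The defining myeloid markers fixed for these cells (Itgam, which encodes CD11b, Cebpb, Spi1, Csf3r, Csf1r, Lyz2, Cd14, Tyrobp, Fcer1g and Ly6g) all lay above the brightness limit of 4.72 on the log2 scale, the 30th percentile of named probe sets. Of the markers of other cells, Cd3d and Klrb1c lay below it and the other 7 of 9 T and NK cell markers above, and Cd79a, Ms4a1, Pax5 and Jchain lay below it and the other 3 of 7 B and plasma cell markers above. All 5 erythroid and all 11 monocyte and macrophage markers lay above it. Array medians lay between 5.42 and 5.46 (log2), which the processing of the values fixes and which does not measure agreement between arrays.

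Rapamycin was accompanied by small changes in a minority of these genes and no common direction. Of the 44 genes, 43 lay above the brightness limit and were tested; of these 1 rose, 5 fell and 37 did not pass limma's test at an adjusted p under 0.05 over all 13965 genes. Nop10, a protein of the snoRNPs that guide pseudouridine formation, rose by 26.4%. Rrp1 and its paralogue Rrp1b, both nucleolar proteins of large subunit assembly, were 1.36-fold and 1.27-fold lower, Polr1a, the largest subunit of RNA polymerase I, was 1.27-fold lower, Gar1, a partner of Nop10 in the same particle, was 1.22-fold lower, and Nop9, an RNA-binding protein of small subunit processing, was 1.13-fold lower. The 6 genes called are 14.0% of those tested, beside 11.3% of all genes; among all genes 4.42% were called higher and 6.92% lower. With the array medians aligned, 2 of these genes were higher (Nop10 and Nop58) and 4 lower, and over all genes the calls were then 875 higher and 707 lower in place of 617 and 967.

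The median log2 change of the 43 genes was -0.01, beside -0.02 over all genes tested, with 21 of the 43 above zero and 22 below. Their changes ran from -0.44 for Rrp1 to 0.34 for Nop10. The median size of change, without its sign, was 0.11, and that over all genes was 0.09. For all 43 the 95% interval of the change lay within 1.5-fold in either direction. At an unadjusted p under 0.05 (limma), 12 of the 43 passed, beside 28.2% of all genes. All 3 rapamycin arrays lay on one side of all 3 PBS arrays for 12 genes (27.9%), 6 of them higher and 6 lower, beside 32.0% of all genes tested. The 6 higher were Nop10, Nop56, Nop58, Polr1c, Utp25 and Wdr12, and the 6 lower were Polr1a, Ubtf, Rrp1, Rrp1b, Gar1 and Nop9.

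**Figure D1:**
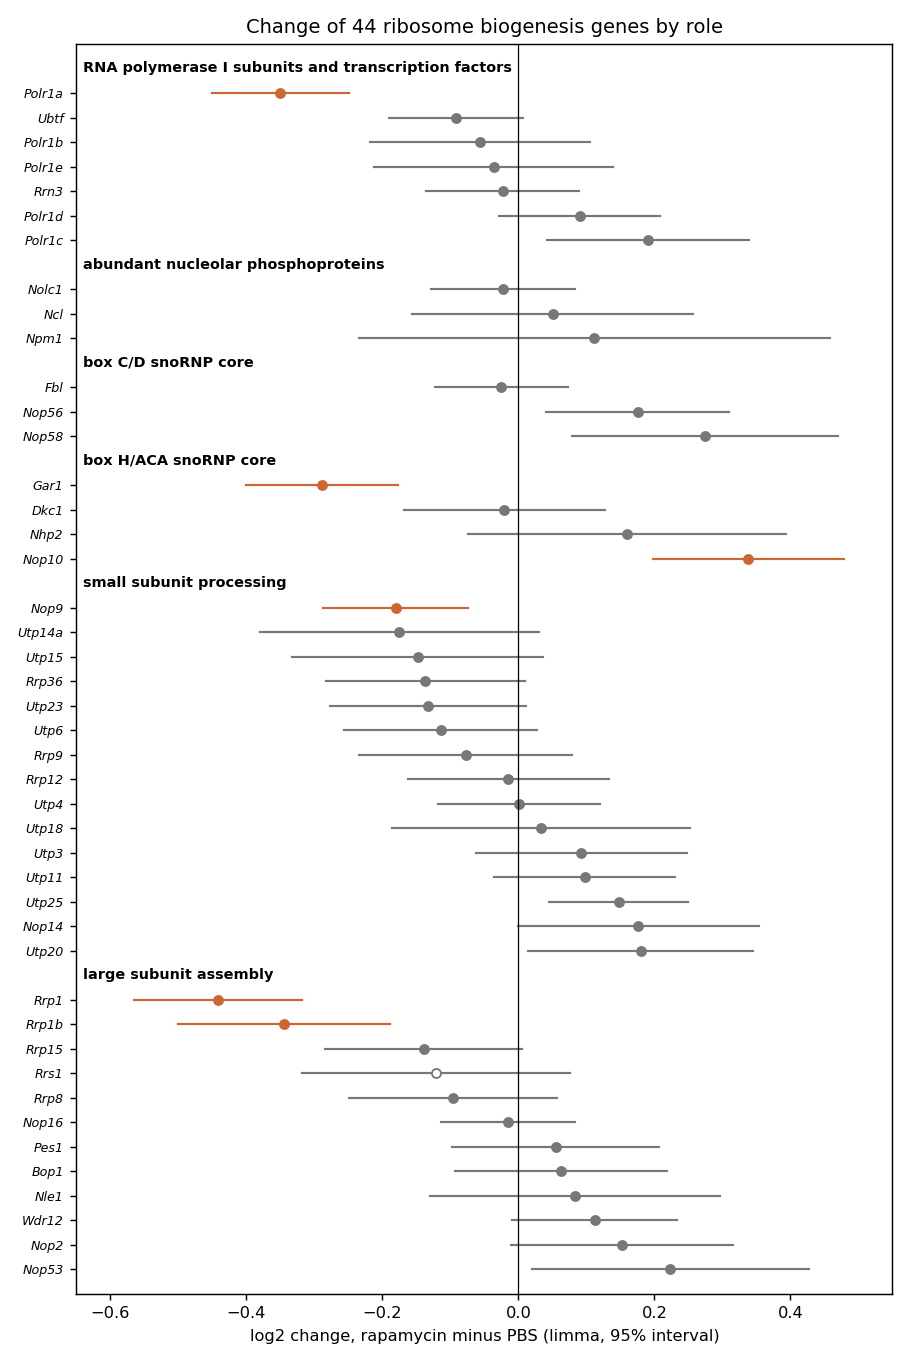
Log2 change with rapamycin against PBS for each of the 44 genes, grouped by role, with limma's 95% interval as a horizontal line (3 arrays a group). Orange marks the 6 genes called at an adjusted p under 0.05, grey the others, and the open circle Rrs1, which lay below the brightness limit. Changes run from -0.44 to 0.34 and lie on both sides of zero in every role.

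Of the 44 genes, 35 had an upstream sequence in the RefSeq table (build GRCm38.p6), and the 250 bases before the start site were searched on both strands for the E-box letters CACGTG, which Myc can bind. They occurred upstream of Nop2, Rrn3, Utp18 and Utp25, which is 4 of 35 (11.4%), beside 6.86% of all 27025 genes in the table and 9.45% of the 11031 array genes tested that it holds. The letters CCGGAAG, the core that ETS-family factors recognise, were added after the data were seen, and stood upstream of 9 of the 35 (25.7%), beside 7.83% of all genes and 13.8% of the array genes tested. Neither motif contains the other. The upstream bases of the 4 called genes with the smallest adjusted p and of Rrn3, the factor through which mTOR acts on RNA polymerase I, are shown 5′ to 3′ on the gene's strand, in lower case, with matches to either motif in capitals. They show where such letters lie in genes that changed in opposite directions and in one that was not called.
Polr1a (chr6:71908803-71909052, plus strand): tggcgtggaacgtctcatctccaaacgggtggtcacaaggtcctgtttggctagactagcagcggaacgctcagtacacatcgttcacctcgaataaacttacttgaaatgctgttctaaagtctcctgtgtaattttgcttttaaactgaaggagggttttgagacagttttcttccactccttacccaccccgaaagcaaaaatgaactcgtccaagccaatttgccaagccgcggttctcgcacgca
Rrp1 (chr10:78413044-78413293, minus strand): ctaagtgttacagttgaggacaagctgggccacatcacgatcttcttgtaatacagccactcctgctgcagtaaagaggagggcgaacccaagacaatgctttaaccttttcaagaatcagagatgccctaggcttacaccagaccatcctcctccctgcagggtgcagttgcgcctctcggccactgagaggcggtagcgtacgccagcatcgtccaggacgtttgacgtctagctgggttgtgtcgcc
Gar1 (chr3:129831397-129831646, minus strand): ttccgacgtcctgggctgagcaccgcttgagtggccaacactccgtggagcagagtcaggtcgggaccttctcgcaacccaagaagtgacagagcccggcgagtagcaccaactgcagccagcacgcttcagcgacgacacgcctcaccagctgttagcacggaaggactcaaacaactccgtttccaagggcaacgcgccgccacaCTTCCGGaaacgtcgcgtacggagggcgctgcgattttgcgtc
Nop10 (chr2:112261676-112261925, plus strand): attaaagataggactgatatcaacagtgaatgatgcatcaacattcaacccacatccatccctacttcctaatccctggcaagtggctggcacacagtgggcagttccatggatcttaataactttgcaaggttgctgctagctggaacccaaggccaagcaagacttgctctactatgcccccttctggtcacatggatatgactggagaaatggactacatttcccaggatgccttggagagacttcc
Rrn3 (chr16:13780449-13780698, plus strand): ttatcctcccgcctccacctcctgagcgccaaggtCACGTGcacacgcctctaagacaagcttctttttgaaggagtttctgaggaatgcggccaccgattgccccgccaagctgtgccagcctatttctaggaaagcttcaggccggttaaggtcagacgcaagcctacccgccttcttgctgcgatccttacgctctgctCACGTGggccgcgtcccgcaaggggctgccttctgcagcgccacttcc
Gar1, which fell, had 1 ETS match, on the reverse strand, and Nop10, which rose, had neither motif, like Polr1a and Rrp1, which fell. Rrn3 had 2 E-box matches. A match describes the letters of the window and not binding by a factor.

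Subunits and factors of RNA polymerase I under other names are given further on. Of the 7 among the 44 genes, Polr1a was the 1 called (14.3%, beside 11.3% of all genes). Its level was 7.79, 7.73 and 7.77 in the PBS arrays and 7.45, 7.40 and 7.39 in the rapamycin arrays (log2, probe set 10539042). The groups lay 0.29 apart at their nearest, against a spread of 0.03 (SD) within each. The mean went from 7.76 ± 0.03 to 7.41 ± 0.03 (SD, n = 3 each), or -0.35 ± 0.04 (SE) on the log2 scale (limma adjusted p 0.0077). Polr1a kept its call whichever of the 6 arrays was dropped (adjusted p 0.0189 to 0.0459) and in all 9 other settings.

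Polr1b encodes the second-largest subunit, which forms the catalytic centre together with the product of Polr1a. It stood at 6.22, 6.05 and 6.10 with PBS and at 6.18, 6.03 and 5.99 with rapamycin, so the groups overlapped. Its log2 change was -0.06, with a 95% interval from -0.22 to 0.11. Polr1e, a subunit particular to RNA polymerase I, gave -0.04 (-0.21 to 0.14), from 6.57, 6.35 and 6.37 to 6.35, 6.34 and 6.49. Neither was called, and their difference from the change of Polr1a was not tested.

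Polr1c and Polr1d encode a pair of subunits shared with RNA polymerase III. Polr1c stood at 7.45, 7.39 and 7.52 with PBS and at 7.75, 7.58 and 7.60 with rapamycin. Every rapamycin array was higher, by at least 0.06, but the change of 0.19 ± 0.06 (SE) did not pass the test (limma adjusted p 0.097). Polr1d differed by 0.09 on its brighter probe set (95% interval -0.03 to 0.21) and by 0.11 on the other (-0.03 to 0.25), so its probe sets gave similar values.

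Rrn3 and Ubtf, factors that act with the polymerase at the ribosomal gene, were not called. Rrn3 stood at 7.65, 7.60 and 7.61 with PBS and 7.64, 7.53 and 7.63 with rapamycin, a change of -0.02 with a 95% interval from -0.14 to 0.09. Ubtf, which encodes the factor UBF that keeps ribosomal genes open, stood at 8.78, 8.75 and 8.71 with PBS and 8.66, 8.65 and 8.65 with rapamycin. Its 3 rapamycin arrays were all lower than any PBS array, and its change of -0.09 ± 0.04 (SE) did not pass limma's test (adjusted p 0.206).

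**Figure D2:**
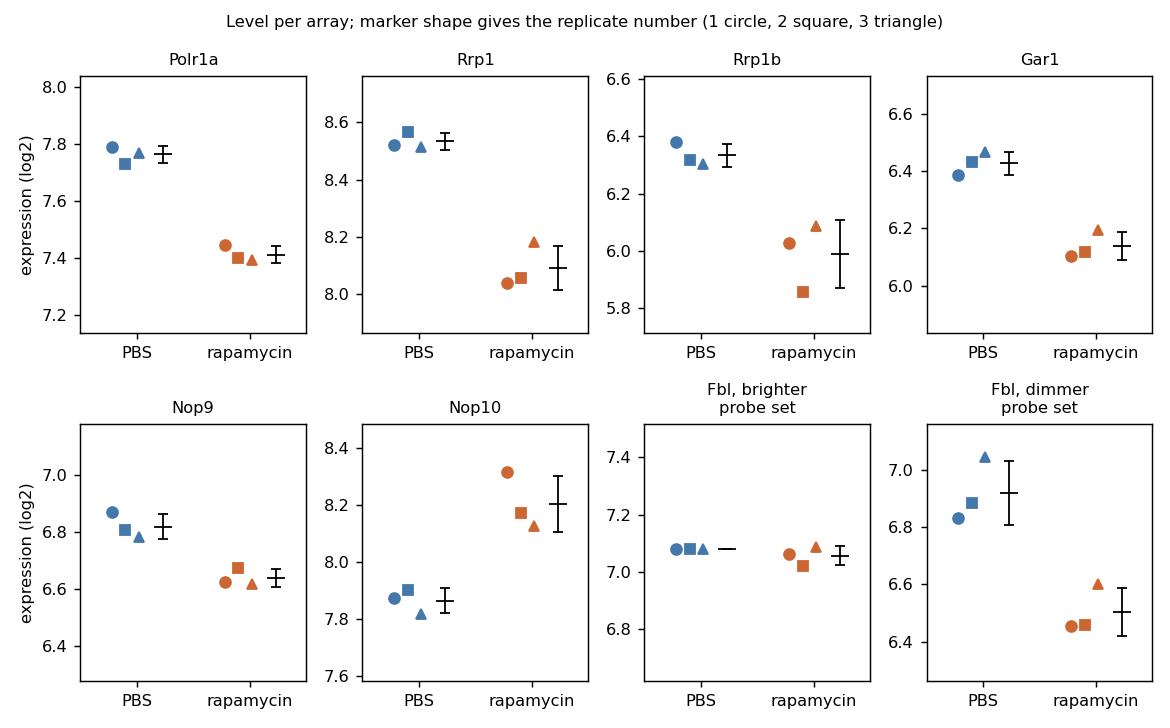
Expression level (log2) on each of the 6 arrays for the 6 called genes and for the 2 probe sets of Fbl; blue marks PBS, orange rapamycin, and the black bar the mean ± SD of 3 arrays. Each panel spans the same range of 0.9. The groups do not overlap for the 6 called genes, and for Fbl they separate on the dimmer probe set, while the brighter one shows the same value of 7.08 on all PBS arrays.

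The snoRNPs that guide pseudouridine formation share 4 core proteins, and 2 of these changed, in opposite directions. Gar1 stood at 6.39, 6.43 and 6.47 with PBS and at 6.11, 6.12 and 6.20 with rapamycin, lower on every rapamycin array by at least 0.19. Its change was -0.29 ± 0.05 (SE, limma adjusted p 0.0145). Nop10 stood at 7.87, 7.90 and 7.82 with PBS and at 8.31, 8.17 and 8.13 with rapamycin, higher on every array by at least 0.22, with a change of 0.34 ± 0.06 (limma adjusted p 0.0177).

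The other members of this core were not called. Dkc1, the pseudouridine synthase itself, gave -0.02 (95% interval -0.17 to 0.13), and Nhp2, the fourth core protein, gave 0.16 (-0.07 to 0.39) with overlapping groups. The adjusted p of Gar1 lay between 0.0575 and 0.066 when PBS replicate 2 or 3 or rapamycin replicate 1 was dropped. That of Nop10 was between 0.0506 and 0.0699 without PBS replicate 1, 2 or 3 or without rapamycin replicate 1. The direction was kept in each of these.

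The snoRNPs that guide ribose methylation are built on Fbl, the methyltransferase fibrillarin, with Nop56 and Nop58. For Fbl the 2 probe sets disagreed. The brighter one (probe set 10447589), used here by the rule, read 7.08 on all 3 PBS arrays, the same to every digit given, and 7.06, 7.02 and 7.09 with rapamycin. Its change was -0.03, with a 95% interval from -0.12 to 0.07. Exact repeats between arrays were not particular to this probe set. Over all probe sets, up to 6.99% of values were identical between 2 arrays.

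The dimmer probe set of Fbl (10551464) read 6.83, 6.88 and 7.05 with PBS and 6.46, 6.46 and 6.60 with rapamycin. All 3 rapamycin arrays were lower there, with a change of -0.42 ± 0.07 (SE) and an adjusted p of 0.014 in a limma fit of every probe set above the brightness limit, an alternative added after the data were seen. The mean of both probe sets gave -0.22 (limma adjusted p 0.0372). The count of genes called lower in this family was therefore 6 rather than 5 when Fbl was read from both. Which probe set reports the fibrillarin transcript was not tested.

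Nop56 and Nop58, the paired scaffold proteins of the same particle, were higher on every rapamycin array and did not pass the test. Nop56 stood at 8.83, 8.77 and 8.65 with PBS and at 8.95, 8.93 and 8.89 with rapamycin, a change of 0.18 ± 0.06 (SE, limma adjusted p 0.0941). Nop58 stood at 7.41, 7.28 and 7.26 with PBS and at 7.71, 7.65 and 7.42 with rapamycin, a change of 0.27 ± 0.08 (limma adjusted p 0.0783). Nop58 was called without rapamycin replicate 3 (0.36, adjusted p 0.0266), the array where it was lowest of its group.

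Several of these genes carry snoRNAs in their introns, and 3 such snoRNAs had a probe set of their own. Snord57, inside Nop56, rose from 10.69, 10.45 and 10.51 with PBS to 10.96, 10.96 and 10.90 with rapamycin, by 0.39 ± 0.07 (SE, limma adjusted p 0.016). It was not called without PBS replicate 2 or 3 or rapamycin replicate 1 or 2 (adjusted p 0.0538 to 0.0737). Inside Ncl, Snord82 differed by 0.17 ± 0.06 (limma adjusted p 0.0898) and Snora75 by 0.33 ± 0.16 (0.221). Snora75 was called without rapamycin replicate 2 (0.52, limma adjusted p 0.0263), the lowest array of its group. These 3 snoRNAs were added after the data were seen, by their position in a host.

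The transcripts of 3 abundant nucleolar proteins were read, and Npm1 varied most between mice. Npm1, a chaperone of ribosome assembly and export, read 9.14, 8.82 and 8.67 with PBS and 9.19, 8.74 and 9.04 with rapamycin. Its spread within a group, 0.24 (SD) with PBS and 0.23 with rapamycin, was larger than the difference of 0.11 between them (95% interval -0.23 to 0.46). Ncl, nucleolin, which binds the precursor RNA, gave 0.05 (-0.16 to 0.26), and Nolc1, which binds snoRNPs, -0.02 (-0.13 to 0.08). None of these 3 genes was called, and the interval of Npm1 was the widest among the 43. Npm1 was read from the probe set that carries its symbol alone, and those that give a further symbol were not used.

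The small subunit processome, the complex that folds and cuts the precursor of small subunit RNA, is represented by 15 genes. Nop9 fell, so 6.67% were called, beside 11.3% of all genes. None of the others rose or fell by the test (14 genes), and changes lay between -0.18 and 0.18. Nop9 read 6.87, 6.80 and 6.78 with PBS and 6.62, 6.67 and 6.62 with rapamycin. Its change of -0.18 ± 0.05 (SE) gave an adjusted p of 0.0467 with limma, close to the threshold, and Nop9 lost its call whichever array was dropped (adjusted p 0.0764 to 0.130) and in 6 of 9 other settings, among them repeated quantile normalization, aligned medians and no brightness limit.

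Utp25, a factor of early cleavage, was not called. It read 6.31, 6.27 and 6.28 with PBS and 6.46, 6.45 and 6.39 with rapamycin, a change of 0.15 ± 0.04 (SE, limma adjusted p 0.0721). Utp20 and Nop14, structural parts of the processome, differed by 0.18 ± 0.07 and 0.18 ± 0.08 (SE), and Utp14a, which activates a helicase of the complex, by -0.18 (-0.38 to 0.03). Of the 15, 7 lay above zero and 8 below. The interval of Utp4, one of the subunits that binds the precursor first, ran from -0.12 to 0.12.

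Large subunit assembly is represented by 12 genes, 11 of them above the brightness limit, of which 2 were called lower, 0 higher and 9 neither. Those called are 18.2% of the 11, beside 11.3% of all genes. Rrp1 read 8.52, 8.57 and 8.51 with PBS and 8.04, 8.06 and 8.18 with rapamycin, with at least 0.33 between the groups. It went from 8.53 ± 0.03 to 8.09 ± 0.08 (SD, n = 3 each), a change of -0.44 ± 0.05 (SE, limma adjusted p 0.00754), the largest of the family by size. Dropping 1 array at a time left it called in 5 of 6 cases, and its adjusted p was 0.0504 without PBS replicate 2.

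Rrp1b, the paralogue of Rrp1, read 6.38, 6.32 and 6.30 with PBS and 6.03, 5.86 and 6.09 with rapamycin. Its change was -0.34 ± 0.07 (SE, limma adjusted p 0.0226). Both paralogues were thus lower on all 3 rapamycin arrays than on any PBS array. The call of Rrp1b was lost without any 1 of the PBS arrays or without rapamycin replicate 1 (adjusted p 0.072 to 0.0873).

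Pes1, Bop1 and Wdr12 form a complex required for large subunit maturation, and none was called. Pes1 differed by 0.06 (95% interval -0.10 to 0.21), Bop1 by 0.06 (-0.09 to 0.22) and Wdr12 by 0.11 (-0.01 to 0.23) on its brighter probe set. The other probe set of Wdr12, just under the brightness limit at a mean of 4.71, gave 0.07 (-0.11 to 0.25). On that probe set the groups overlapped, unlike on the brighter one. Nop53, an assembly factor that recruits the exosome, differed by 0.22 (0.02 to 0.43), and Nop2, a methyltransferase of large subunit RNA, by 0.15 (-0.01 to 0.32). Nop2 was called without rapamycin replicate 3 (0.23, limma adjusted p 0.0451). Rrs1, which helps bring a small ribosomal RNA into the particle, was the gene set aside as too dim, at 4.78, 4.59 and 4.79 with PBS and 4.64, 4.46 and 4.70 with rapamycin. In the fit of all genes its change was -0.12 (-0.32 to 0.08).

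**Figure D3:**
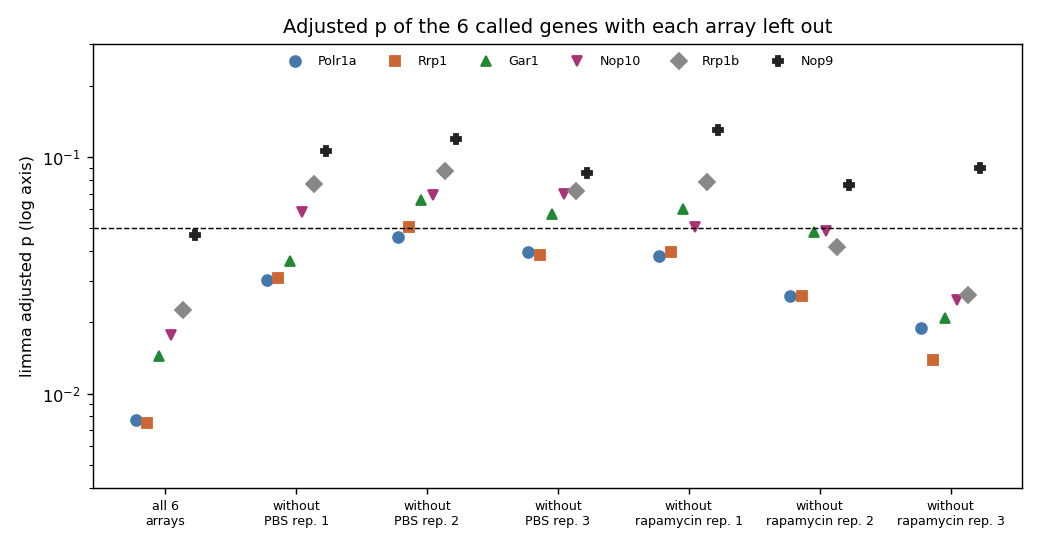
Limma adjusted p (log axis) of the 6 called genes in the fit of all 6 arrays and with each array left out in turn; the dashed line marks 0.05. Polr1a stays under the line in all 7 fits, and Nop9 lies above it whenever an array is left out.

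How many of the 6 calls remained depended on single arrays, in fits that had fewer samples. Dropping PBS replicate 2 left Polr1a as the 1 call, with 0.809% of all genes called. Dropping PBS replicate 3 left Polr1a and Rrp1 (2.91% of all genes), as did dropping rapamycin replicate 1 (2.64%). Dropping PBS replicate 1 left those 2 and Gar1 (5.01%). All but Nop9 were called when rapamycin replicate 2 was dropped (5.1%), and the same 5 together with Nop58 and Nop2 when rapamycin replicate 3 was (9.57%).

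The family varied between mice of a group in a shared way. PBS replicate 1 held the highest value of its group for 27 of the 43 genes (62.8%), where it did so for 34.4% of all genes tested. PBS replicate 3 held the lowest for 26 (60.5%, beside 30.2% of all genes). With rapamycin, replicate 1 was the highest for 24 genes (55.8%, beside 35.5%) and replicate 2 the lowest for 23 (53.5%, beside 32.5%). The shifts were small: the median deviation of the genes from their group mean ran from -0.04 for rapamycin replicate 2 to 0.04 for rapamycin replicate 1. No test is given, since genes read on the same arrays are not independent.

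**Figure D4:**
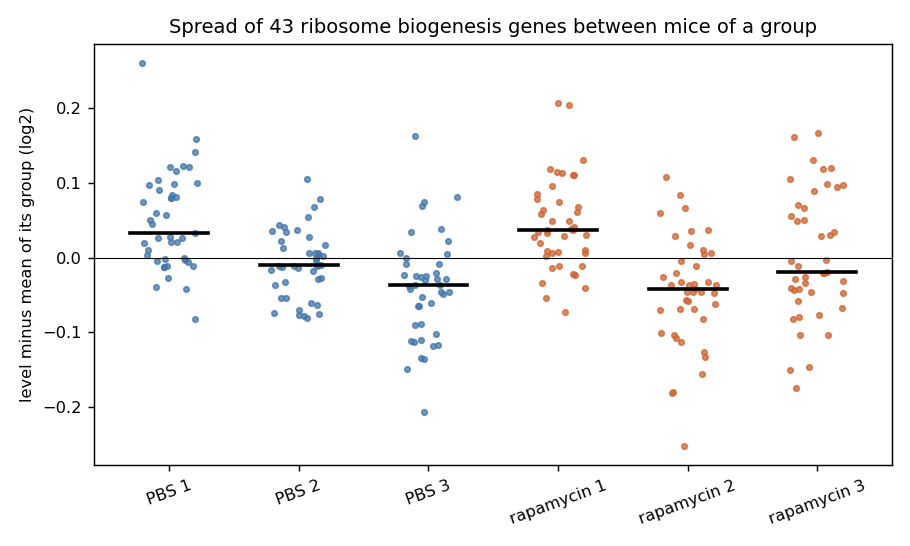
Level of each of the 43 tested genes on an array minus the mean of its group (log2), for the 3 PBS arrays (blue) and the 3 rapamycin arrays (orange), with the median as a black bar. The medians of PBS replicate 1 and rapamycin replicate 1 lie above zero and those of the other 4 arrays below.

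A wider list of 104 assembly genes under other names, all above the brightness limit, gave a like picture, with 5 higher, 11 lower and 88 that did not pass the test. These 16 are 15.4% of the list, beside 11.3% of all genes. The median change was 0.00. With the array medians aligned the calls were 10 higher and 9 lower, so the direction of the list depends on the scaling, and dropping single arrays reduced the count of calls. It was 6, 2 and 5 with PBS replicate 1, 2 or 3 dropped in turn, and 4, 5 and 9 for the rapamycin arrays in the same order. The share of all genes called fell too. It was 5.01%, 0.809% and 2.91% for the PBS arrays, and 2.64%, 5.10% and 9.57% for the rapamycin arrays. The lists were drawn up with earlier results of these data known.

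Of 36 further genes of small subunit processing 5 fell and 1 rose (16.7% called, beside 11.3% of all genes). Wdr46, a scaffold of the processome, read 7.96, 8.06 and 8.07 with PBS and 7.50, 7.42 and 7.56 with rapamycin, a change of -0.54 ± 0.05 (SE, limma adjusted p 0.00535). Bud23, a methyltransferase of small subunit RNA, read 8.54, 8.56 and 8.55 with PBS and 8.08, 7.98 and 7.99 with rapamycin, a change of -0.53 ± 0.05 (0.0038). Both kept their calls whichever array was dropped. Ltv1, which leaves the small subunit late in its assembly, changed by -0.46 ± 0.09 (limma adjusted p 0.021). Heatr1, a subunit needed for transcription of ribosomal genes, rose by 0.56 ± 0.09 (0.0134), from 8.18, 7.94 and 7.83 to 8.59, 8.56 and 8.49. With 1 array dropped, Ltv1 was called in 2 of 6 cases and Heatr1 in 4; both were lost without PBS replicate 2 or rapamycin replicate 1, and Ltv1 also without PBS replicate 3 or rapamycin replicate 2.

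Of 46 further genes of large subunit assembly 2 rose and 3 fell (10.9% called, beside 11.3% of all genes). Lsg1, a GTPase that acts at a last step in the cytoplasm, changed by -0.37 ± 0.08 (SE, limma adjusted p 0.0256) and Brix1, an early assembly factor, by -0.26 ± 0.06 (0.0441). Urb1, a scaffold of the early particle, rose by 0.36 ± 0.08 (limma adjusted p 0.029) and Nsa2 by 0.24 ± 0.06 (0.0446). Of these, Lsg1 kept its call only without rapamycin replicate 3 and Brix1 only without PBS replicate 3, and Urb1 and Nsa2 lost theirs whichever array was dropped.

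The RNA exosome trims the precursor of the large subunit RNA and degrades spacers. Of its 13 measured genes 3 fell (23.1%, beside 6.92% of all genes called lower) and 0 rose, with a median change of -0.08. Exosc9 read 8.47, 8.38 and 8.40 with PBS and 7.86, 7.81 and 8.10 with rapamycin, a change of -0.50 ± 0.08 (SE, limma adjusted p 0.014). Exosc4 and Exosc8 changed by -0.26 ± 0.06 and -0.24 ± 0.04 (limma adjusted p 0.0326 and 0.0181). Exosc9 was called only when rapamycin replicate 2 or 3 was dropped, and Exosc8 was not called when PBS replicate 2, PBS replicate 3 or rapamycin replicate 2 was dropped. Exosc4 lost its call whichever array was dropped.

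Partners of RNA polymerase I under other names gave 2 higher of 9 and 0 lower (22.2% called, beside 11.3% of all genes). Twistnb, a subunit of the polymerase stalk, read 7.54, 7.40 and 7.51 with PBS and 7.79, 7.67 and 7.72 with rapamycin, a change of 0.25 ± 0.06 (SE, limma adjusted p 0.0355). Taf1d, a subunit of the promoter selectivity factor, changed by 0.24 ± 0.06 (0.0375). Within the polymerase and its factors, Polr1a was thus called lower and Twistnb and Taf1d higher. Both of the latter lost their calls whichever array was dropped. Taf1d was also not called with repeated quantile normalization (0.18, limma adjusted p 0.114) or with the mean of its probe sets (0.30, limma adjusted p 0.0577).

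Set beside the other nuclear polymerases, RNA polymerase I had 1 of 5 Polr1 genes called (lower) and, among its subunits under other names, Twistnb called higher and Cd3eap (log2 change -0.0034) and Znrd1 (0.04) not called. RNA polymerase II had 2 of 7 genes called (1 higher, 1 lower) and RNA polymerase III had 2 of 10 (both lower). The median changes were -0.04 (the 5 Polr1 genes), -0.01 (RNA polymerase II) and -0.17 (RNA polymerase III). The first leaves out Twistnb (0.25), Cd3eap and Znrd1. Polr1c (0.19) and Polr1d (0.09), which RNA polymerase III shares, were counted with the Polr1 genes and not in its median, so the sets are unlike. Of the 5 subunits common to all polymerases 0 were called, with a median of -0.02. At an unadjusted p under 0.05 (limma), 2 of these 5 common subunits passed, beside 28.2% of all genes. Crcp, a subunit of RNA polymerase III chosen here after its value was seen, changed by -0.68 ± 0.08 (SE, limma adjusted p 0.00739). It read 7.35, 7.58 and 7.32 with PBS and 6.70, 6.68 and 6.83 with rapamycin. Differences between the polymerases as sets were not tested.

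**Figure D5:**
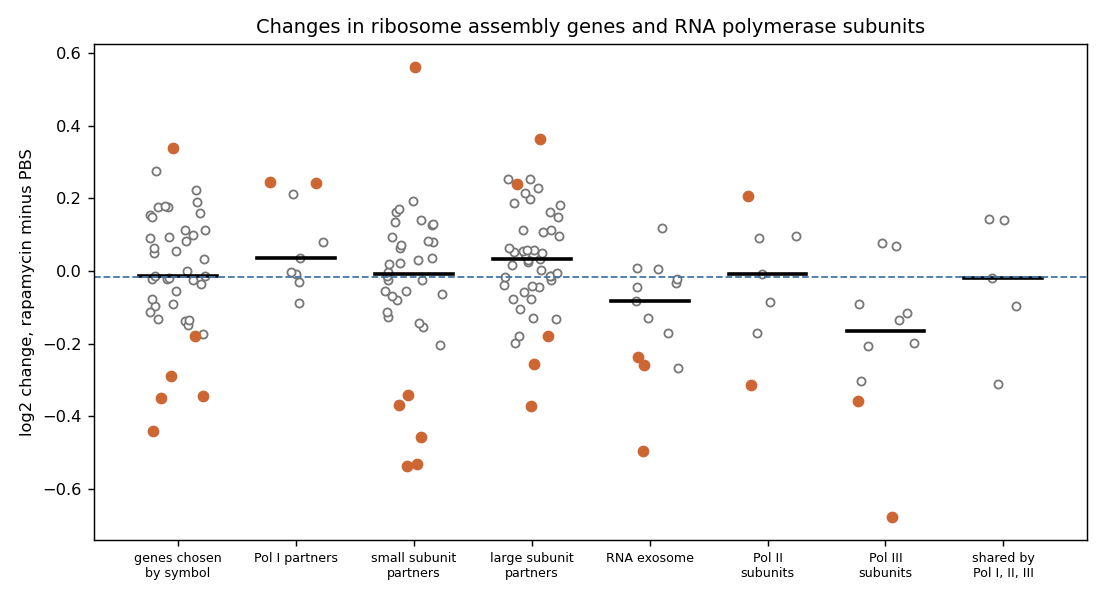
Log2 change with rapamycin against PBS for the 43 genes chosen by symbol, for 4 lists of other assembly genes and for subunits of the other RNA polymerases (Pol I, II and III). Orange marks genes called at limma's adjusted p under 0.05, open circles the others, black bars the medians, and the dashed line the median of all genes tested (-0.02). Most points lie within 0.3 of zero, and Crcp at -0.68 and Heatr1 at 0.56 lie farthest out.

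Marker genes of several cell types moved in the same arrays. In a bulk sample fewer cells of a type cannot be told apart from less RNA per cell. The shares called are to be read beside 11.3% of all genes tested. Of 7 tested markers of T and NK cells 4 fell and 0 rose (57.1%). The summed linear level of the 9 measured was 666 to 743 with PBS and 452 to 563 with rapamycin. Of 19 markers of cycling cells, in which ribosome production is high, 4 fell and 0 rose (21.1%). Their summed level was 14039 to 14254 with PBS and 13302 to 14255 with rapamycin, so it overlapped. Rapamycin replicate 3 lay at the PBS level and the other 2 rapamycin arrays below it. Of 5 erythroid markers 1 rose (184 to 193 with PBS, 221 to 249 with rapamycin), and of 11 of monocytes and macrophages 1 rose and 2 fell (6390 to 7903 and 8057 to 8661).

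Markers of the neutrophil line overlapped between the groups in their sums. Of 10 markers of mature neutrophils 3 rose and 0 fell (44762 to 48314 with PBS, 46164 to 49061 with rapamycin), and of 11 of immature neutrophils and primary granules 0 were called (47430 to 48966 and 46707 to 47826). Of 10 myeloid markers of the sort 1 rose and 0 fell (10.0%), with sums of 37274 to 39286 and 35680 to 40086. Of 3 tested B and plasma cell markers 1 fell (33.3%), with 4 more below the limit (1839 to 1875 and 1860 to 2201 over all 7). The part of these cells in the changes of the ribosome biogenesis genes was not tested.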

How the data were processed

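RNA of each mouse's sorted cells was read on 1 Affymetrix array after whole-transcript labelling, as the labels' protocols state. What the authors deposited is 1 log2 value for every probe set and array, which the submitters' processing notes credit to RMA in Affymetrix Expression Console. Software versions and the array's genome build are not given in the sources used here. Because RMA gives all arrays one distribution, a shift shared by nearly every gene could not be seen. No further scaling was applied.

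Of 35556 probe sets, 21789 had 1 symbol in the platform annotation of GEO and were used; 1621 with several and 12146 unlisted ones were not. Each of 19938 genes was read from its brightest probe set (mean of 6 arrays), and those whose mean lay below the 30th percentile were set aside, which left 13965. Groups were compared with limma 3.58.1 (lmFit, eBayes) in R 4.3.3, 2-sided, with Benjamini-Hochberg adjustment over all genes tested. Intervals are limma's moderated 95% intervals, and p-values rest on mice the labels call biological replicates. The fit was checked on simulated data in which most genes were unchanged. It recovered 27 of 50 changes of 0.3 and 49 of 50 changes of 0.6 (log2), with 9 false calls among 185. Changes near 0.3 or smaller can thus go uncalled. In the data 1584 genes were called, so the cut on p was less strict there than in the simulation, and recovery can differ.

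The genes, the lists and their tests were chosen with earlier results of these data known. Genes given with values are every called gene of the 44, every RNA polymerase I gene, the 2 of each role with the largest moderated statistic, those with several probe sets and, per list of other assembly genes, up to 4 called genes with the largest change; the rest were chosen after their values were seen. Upstream sequences are from RefSeq, GRCm38.p6. The same replicate numbers occur in both groups, but the labels do not say that they pair mice. Alternatives were other brightness limits, scalings, probe set rules, variance models, array weights, a replicate block and leaving out each array. Plots used Python 3.11.15 and matplotlib 3.10.9.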

Additional observations from a re-analysis of the deposited data

How the results depend on the processing

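The 6 calls were 5 to 7 with other brightness limits, other scalings, probe set means, every probe set tested (added after the data were seen), an intensity trend, array weights or the replicate block, and 1 (Polr1a, lower; 0 higher) in the unmoderated fit. The count of higher genes was 2 in place of 1 with repeated quantile normalization (Utp25 added) and with aligned medians, array weights or the replicate block (Nop58 added). With an array left out, calls ran from 1 to 7 (0 to 3 higher, 1 to 4 lower), those of the 104 other assembly genes from 2 to 9 in place of 16 (0 to 1 higher, 2 to 8 lower), and the median change of the family from -0.020 to 0.034. The share of all genes called in these fits ran from 0.809% to 9.57%, in place of 11.3%. In the unmoderated fit 1 of the 104 was called (lower; 0 higher), and with aligned medians 10 were higher. Deviations of same-numbered arrays from their group means had correlations over genes of 0.26 (replicate 1), 0.01 (replicate 2) and 0.05 (replicate 3). Those of arrays with different numbers ran from -0.19 to 0.14. The numbers were not taken as pairs, and a shift shared by both arrays numbered 1 was not tested. The replicate block gave 6 calls, 2 higher (Nop10, Nop58) and 4 lower.

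Signs turned for 10 genes near zero that did not pass the test. With repeated quantile normalization Fbl was 0.0031, Polr1e was 0.0022, Dkc1 was 0.00081, Nop16 was 0.0097, Rrp12 was 0.018. With aligned medians Fbl was 0.0066, Rrn3 was 0.0087, Dkc1 was 0.011, Nolc1 was 0.0088, Nop16 was 0.017, Rrp12 was 0.017, and with array weights Dkc1 was 0.0017. With an array left out the changes ran from -0.033 to 0.13 for Ncl, from -0.086 to 0.034 for Polr1e, from -0.043 to 0.012 for Rrn3, from -0.060 to 0.031 for Dkc1, from -0.038 to 0.0064 for Nolc1, from -0.029 to 0.0021 for Nop16, from -0.074 to 0.039 for Rrp12, from -0.034 to 0.12 for Utp18, from -0.022 to 0.038 for Utp4. The cause was not tested. Fbl, lower with probe set means (-0.22, limma adjusted p 0.0372), is the gene whose reading rests on the choice of probe set.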
